A study of Mus with 21 samples.

Results

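The 9 genes that encode the subunits of AMPA and kainate receptors, *Gria1* to *Gria4* and *Grik1* to *Grik5*, were examined in the embryonic mouse brain. They were taken by name from a table of 55335 genes, where each of the 9 names matched 1 row, and all 9 were among the 30552 genes that passed the filter on low counts. The study asked whether a lower dose of *Wapl*, whose product takes cohesin off chromosomes, changes the transcriptome caused by a lower dose of *Nipbl*, whose product loads cohesin. Poly(A) RNA was sequenced from whole brains of female embryos at E17.5, 1 embryo per library, in 4 groups. WT embryos (n = 5) carried 2 intact copies of both genes. *Wapl* Δ/+ embryos (n = 7) carried 1 *Wapl* allele without its promoter and first exons, derived from a floxed allele by a cross to *E2a-Cre* females. *Nipbl*+/- embryos (n = 3), which the labels write as +/delta, carried 1 *Nipbl* allele deleted in the male germ line by the *Stra8-icre* transgene of their sires. Double heterozygotes (n = 6) carried both. The embryos came from 2 crosses on a C57BL/6J background, and the deletions are carried by all cell types of a mutant embryo, not by neurons alone.

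AMPA and kainate receptors are ion channels opened by glutamate, each an assembly of subunits around a cation pore. AMPA receptors carry most fast excitatory transmission in the brain, and the edited form of GluA2, the product of *Gria2*, keeps the channel closed to calcium. Kainate receptors act on both sides of the synapse and modulate release: *Grik1* to *Grik3* encode subunits that can form channels by themselves, while *Grik4* and *Grik5* encode subunits that bind glutamate with high affinity and need a partner from the first set. Late in gestation these genes are expressed in immature neurons before most synapses have formed.

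The genes lie on separate chromosomes apart from 1 pair, and all but 1 are long. In GRCm38.p6, *Gria1* spans chromosome 11 from 57011571 to 57330244, *Gria2* chromosome 3 from 80681450 to 80804227, *Gria3* chromosome X from 41400819 to 41678601 and *Gria4* chromosome 9 from 4417893 to 4796234. *Grik1* spans chromosome 16 from 87895901 to 88290863, *Grik2* chromosome 10 from 49093680 to 49790161 and *Grik3* chromosome 4 from 125490259 to 125714173. *Grik4* spans chromosome 9 from 42518182 to 42945000, and *Grik5* chromosome 7 from 25009849 to 25075694. From first to last base, 8 of the 9 genes cover more than 100 kb and *Grik5* covers 65.85 kb, against a median of 15.39 kb over the tested genes with a known span. *Gria4* and *Grik4*, the pair on chromosome 9, are far apart. Counts were made over annotated genes, and the strand setting is not given in the sources used here, so reads of non-coding genes that lie within *Gria4*, *Grik1*, *Grik2*, *Grik3* and *Grik4*, and of *Zfp574*, whose end overlaps that of *Grik5*, cannot all be told apart from those of the receptor gene. The overlap with *Zfp574* is short, from 25075674 to 25075694. *Zfp574* held 1241 to 1587 counts per library, and *Grik5* at least 6717.

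The libraries held 25682566 to 35818767 counts (median 31830396), and the lowest count of any receptor gene in any library was 511, for *Grik4*. The targeted genes followed the labels: *Wapl* stood at 46.7% of WT in *Wapl* Δ/+ and 49.3% in double heterozygotes, and *Nipbl* at 54.3% in *Nipbl*+/- and 54.8% in double heterozygotes. The libraries fell into sets by the mitochondrial gene *mt-Nd3*: 9 held 52 or more reads on it and 12 held 6 or fewer. The high set held 2 WT libraries (replicates 4 and 5), 5 *Wapl* Δ/+ libraries (replicates 3 to 7) and 2 double heterozygotes (replicates 5 and 6), and no *Nipbl*+/- library. In the 13 libraries with a *Wapl* deletion this split followed the order in which the labels write the alleles (delta/+ or +/delta). Calls of receptor genes against WT and against *Wapl* Δ/+ are therefore given also within a set. Family sums, partner genes and markers are given over all libraries only. *Nipbl*+/- replicate 3 and double replicate 5 differed most from the other libraries of their groups, with chi-square values per gene of at least 16.37 against every other library of the same group, whereas values within WT ran from 2.406 to 13.21. In whole brain, fewer cells of a type and less RNA per cell cannot be told apart. Levels are given as CPM, the counts of a gene scaled to a common library total, which does not allow for transcript length, so different genes are not compared by level.

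The first comparison asks what loss of 1 *Nipbl* allele does to the receptor genes. In *Nipbl*+/- brains all 4 AMPA subunit genes and 3 of the 5 kainate subunit genes (*Grik1*, *Grik2* and *Grik4*) fell. The 7 falls ran from 10.8% for *Gria4* to 21.6% for *Gria2*. The remaining kainate genes, *Grik3* and *Grik5*, did not pass the test and lay slightly above WT. A gene was called at a Benjamini-Hochberg adjusted *P* below 0.10 in edgeR's quasi-likelihood test over all 30552 genes. Of all tested genes 11.2% were called, 6.96% lower and 4.25% higher. Among the 9094 genes that averaged 20 CPM or more over the libraries, as all 9 receptor genes do, 13.7% were called lower. Among the 1453 of these that also span at least 100 kb, 38.9% were called lower (96.25% of the 9094 had a known span), so the share of receptor genes that fell is to be read against a class of genes in which falls were common. The study made its calls with DESeq2. Run here at the same threshold, DESeq2 called 8 of the 9 genes (7 lower) and 3504 of the 30552 tested genes.

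**Figure D1:**
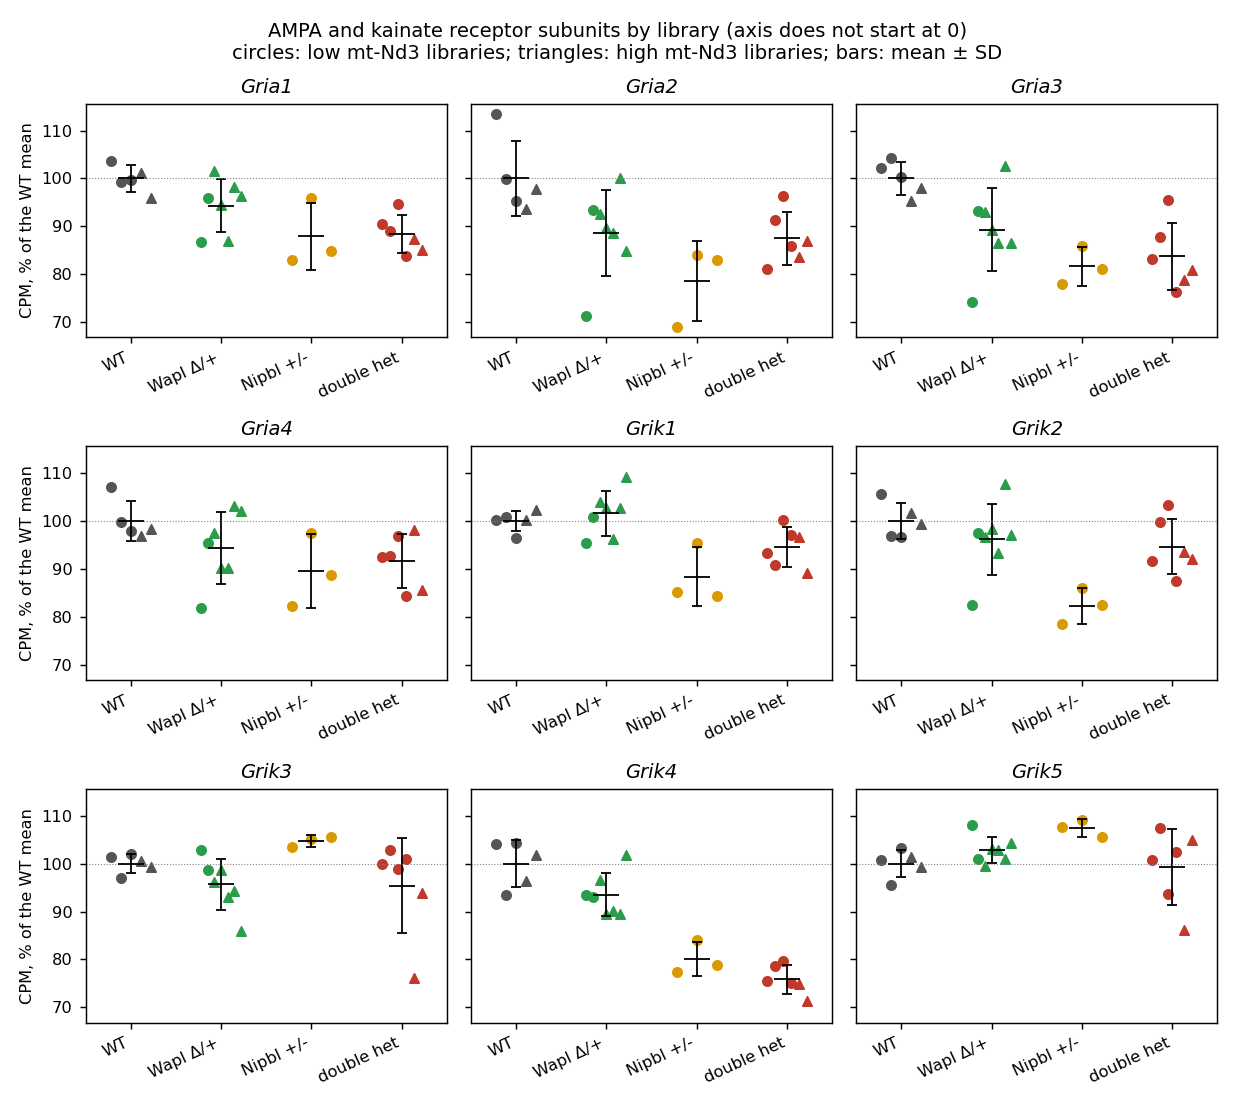
Level of each receptor subunit gene in each library, as a percentage of the mean CPM of the 5 WT libraries, by genotype; points are libraries (circles: 6 or fewer *mt-Nd3* reads, triangles: 52 or more), bars are the mean ± SD, and the vertical axis does not start at 0. *Grik4* lies below all WT libraries in every *Nipbl*+/- and double heterozygous library, while *Grik3* and *Grik5* lie above all WT libraries in the 3 *Nipbl*+/- libraries.

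*Gria2*, which encodes the subunit that keeps calcium out of the AMPA channel, had the largest estimated fall of the 9 over all libraries. Its level was 468, 412, 393, 387 and 404 CPM in WT replicates 1 to 5 and 285, 347 and 343 CPM in *Nipbl*+/- replicates 1 to 3. The groups did not overlap, and replicate 1 was the highest WT and the lowest *Nipbl*+/- library. The log2 fold change was -0.35 ± 0.0629 (SE, edgeR adjusted *P* = 0.00192). It ran from -0.40 to -0.26 when each library was left out in turn and was called each time.

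*Gria3*, the X-linked AMPA subunit gene, stood at 59.3, 60.5, 58.2, 55.4 and 56.9 CPM in WT and at 45.2, 49.9 and 47.1 CPM in *Nipbl*+/- brains. All *Nipbl*+/- libraries lay below all WT libraries, and its log2 fold change was -0.30 ± 0.0449 (SE, edgeR adjusted *P* = 0.000539). As all embryos were female, *Xist*, the RNA of the inactive X, was present throughout, at 644 to 903 CPM.

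*Gria1*, whose product forms calcium-permeable AMPA channels where GluA2 is missing, was at 230.0, 220.3, 221, 224 and 213 CPM in WT and at 184, 212.727 and 188 CPM in *Nipbl*+/- brains. The groups met at their edges without overlap, since the highest *Nipbl*+/- library and the lowest WT library (212.772 CPM) were almost equal. The log2 fold change was -0.19 ± 0.0455 (SE, edgeR adjusted *P* = 0.0134). *Gria4*, an AMPA subunit gene of the developing brain and of interneurons, ranged from 105 to 116 CPM in WT and from 89.1 to 106 CPM in *Nipbl*+/- brains, so that the groups overlapped. Its log2 fold change of -0.17 ± 0.0495 (SE) was called by edgeR at an adjusted *P* of 0.0481, but not without WT replicate 1 (0.146), *Nipbl*+/- replicate 1 (0.288) or *Nipbl*+/- replicate 3 (0.152).

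The kainate genes divided. *Grik2*, which encodes the widely expressed channel-forming subunit GluK2, was at 102, 93.5, 93.3, 98.3 and 96.0 CPM in WT and at 75.8, 83.2 and 79.6 CPM in *Nipbl*+/- brains. No library of one group reached the other, and its fold change had the smallest adjusted *P* of the 9 (log2 -0.29 ± 0.0417 SE, edgeR adjusted *P* = 0.000404). *Grik4*, which encodes a high-affinity subunit, was at 25.01, 22.4, 25.05, 23.2 and 24.4 CPM in WT and at 18.6, 20.2 and 19.0 CPM in *Nipbl*+/- brains, again without overlap (log2 -0.33 ± 0.0543 SE, edgeR adjusted *P* = 0.00113).

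*Grik1*, a channel-forming subunit gene, varied little in WT (39.6 to 42.1 CPM) and was at 35.0, 39.2 and 34.7 CPM in *Nipbl*+/- brains. Its log2 fold change of -0.18 ± 0.0478 (SE, edgeR adjusted *P* = 0.023) was not called without *Nipbl*+/- replicate 1 (adjusted *P* = 0.127) or replicate 3 (0.145). In all, 6 of the 9 receptor genes lay lower in every *Nipbl*+/- library than in any WT library, against 6.9% of all tested genes.

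*Grik3* and *Grik5* showed the opposite order. *Grik3*, which encodes a channel-forming subunit of low glutamate affinity, was at 231, 221, 232, 229 and 226 CPM in WT and at 236, 239.6 and 241 CPM in *Nipbl*+/- brains. *Grik5*, the other high-affinity subunit gene, was at 254, 241, 261, 256 and 251 CPM in WT and at 272, 276 and 266 CPM in *Nipbl*+/- brains. For both genes every *Nipbl*+/- library lay above every WT library, an order that 6.54% of all tested genes showed. The differences were small, with a log2 fold change of 0.060 ± 0.0337 (SE, edgeR adjusted *P* = 0.346) for *Grik3* and 0.097 ± 0.0355 (SE, edgeR adjusted *P* = 0.114) for *Grik5*. *Grik5* passed the threshold under DESeq2 (adjusted *P* = 0.0289), with DESeq2's size factors in edgeR (0.0871), among genes of at least 1 CPM (0.0561) and without WT replicate 3 (0.0918) or *Nipbl*+/- replicate 3 (0.0887). It did not pass under the other settings, where its adjusted *P* ran up to 0.441.

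**Figure D2:**
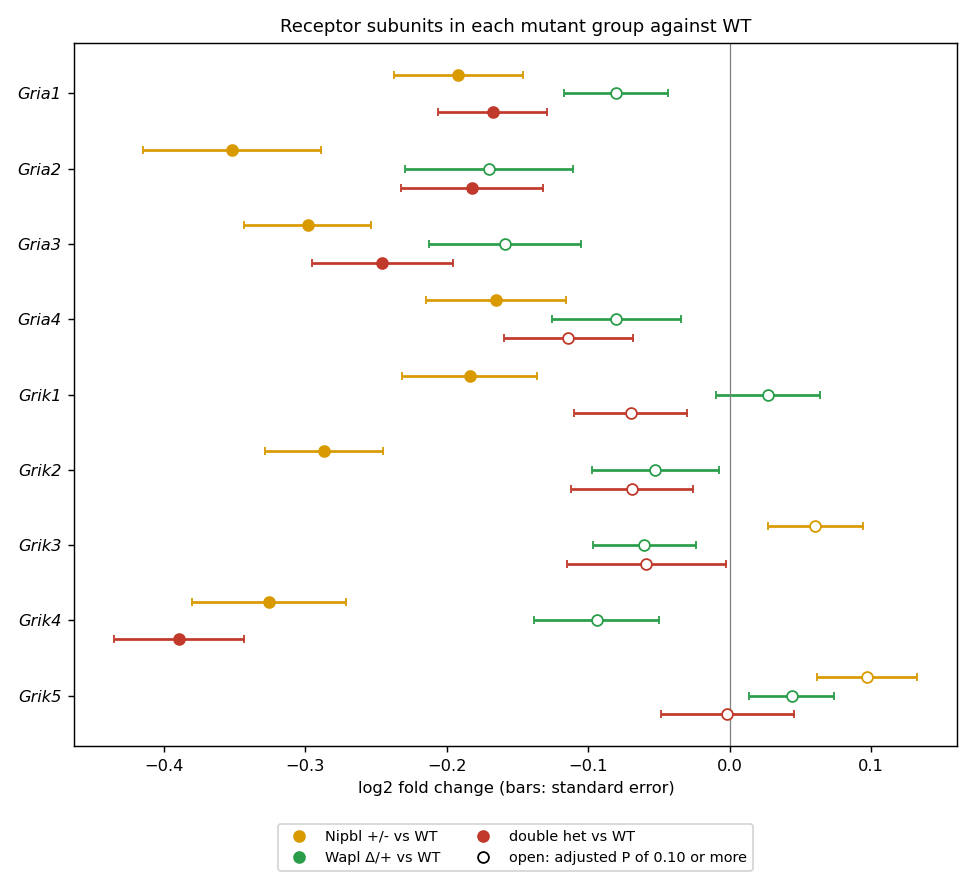
Log2 fold change of each receptor subunit gene against WT in *Nipbl*+/-, *Wapl* Δ/+ and double heterozygous brains; bars are standard errors and filled points have an edgeR adjusted P below 0.10. Filled points number 7 for *Nipbl*+/-, 0 for *Wapl* Δ/+ and 4 for double heterozygotes, and the 3 comparisons share the WT libraries.

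Within the low *mt-Nd3* set, which holds 3 WT and all 3 *Nipbl*+/- libraries, 5 of the 9 genes were called lower by edgeR, against 4.36% of all tested genes: *Gria1* (log2 -0.20, adjusted *P* = 0.0589), *Gria2* (-0.39, 0.0117), *Gria3* (-0.33, 0.00426), *Grik2* (-0.28, 0.00976) and *Grik4* (-0.33, 0.013). *Gria4* (log2 -0.19, adjusted *P* = 0.112) and *Grik1* (-0.17, 0.137) had values like those over all libraries but did not pass there.

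Families were also summed. The 4 AMPA genes together took 771 to 874 CPM in WT and 603 to 715 CPM in *Nipbl*+/- brains, with no overlap. The 5 kainate genes together took 619.6 to 653 CPM in WT and 637 to 658 CPM in *Nipbl*+/- brains, which overlapped. *Grik2* made up 14.3 to 15.6% of the kainate counts in WT and 11.9 to 12.6% in *Nipbl*+/- brains, and *Grik4* 3.58 to 3.85% and 2.92 to 3.07%. *Grik5* made up 38.9 to 40.03% and 41.6 to 42.7%, and no *Nipbl*+/- library overlapped WT for any of these 3 shares. The shares of *Grik1* (6.09 to 6.68% and 5.42 to 5.96%) and *Grik3* (35.3 to 35.7% and 36.4 to 37.6%) did not overlap either. Shares within a family add up to the whole, so a rise of 1 goes with falls of others. *Gria2* made up 51.5% ± 1.35 (SD, n = 5) of the AMPA counts in WT and 48.9% ± 1.83 (SD, n = 3) in *Nipbl*+/- brains, and here the groups overlapped (50.1 to 53.6% against 47.2 to 50.8%). The *Gria4* share did not overlap (13.3 to 13.7% in WT against 14.3 to 14.8% in *Nipbl*+/- brains), and those of *Gria1* and *Gria3* did. Longer transcripts give more counts, so these are shares of counts and not of molecules. Shares were not computed for other gene families, and neither the sums nor the shares have a rate of non-overlap over all genes beside them.

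The second comparison asks what loss of 1 *Wapl* allele does. No receptor gene passed the test in *Wapl* Δ/+ brains (0 of 9, against 2.22% of all tested genes called and 1.45% called lower). At an unadjusted *P* below 0.05 the edgeR test picked 4 of the 9, *Gria1*, *Gria2*, *Gria3* and *Grik4*, all lower, where 15.6% of all tested genes passed. DESeq2 called 1 of the 9, *Gria3* (adjusted *P* = 0.0845), and 4.73% of all tested genes.

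For *Gria2* the 7 *Wapl* Δ/+ libraries ran from 294 CPM through a median of 370.4 to 413 CPM, and for *Gria3* from 43.0 through 51.8 to 59.6 CPM. Replicate 1 was the lowest for both and replicate 6 the highest, and both groups overlapped WT. The log2 fold changes were -0.17 ± 0.0594 (SE, edgeR adjusted *P* = 0.17) for *Gria2* and -0.16 ± 0.0536 (SE, adjusted *P* = 0.156) for *Gria3*. Without *Wapl* Δ/+ replicate 6 both were called (edgeR adjusted *P* = 0.0883 and 0.0592), as were 914 of the 30552 tested genes in place of 677.

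*Gria1*, *Gria4* and *Grik4* had log2 fold changes of -0.081, -0.080 and -0.094 in *Wapl* Δ/+ brains, with edgeR adjusted *P* of 0.295, 0.418 and 0.309. The values for *Grik1*, *Grik2*, *Grik3* and *Grik5* lay between -0.060 and 0.044. These sizes differed between the *mt-Nd3* sets: *Gria2* was at log2 -0.32 in the 3 WT and 2 *Wapl* Δ/+ libraries of the low set and -0.070 in the 2 WT and 5 *Wapl* Δ/+ libraries of the high set, and *Gria3* at -0.29 and -0.077. No receptor gene was called in either set, where 0.154% and 0.91% of all tested genes were (edgeR adjusted *P* for *Gria2* 0.259 and 0.793), and the difference between sets was not tested.

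The third comparison sets double heterozygotes against WT. Here 4 of the 9 genes fell, *Gria1*, *Gria2*, *Gria3* and *Grik4*, against 3.28% of all tested genes called and 2.46% called lower (15.8% among genes averaging 20 CPM or more that span at least 100 kb). All 4 had also fallen in *Nipbl*+/- brains, a comparison that used the same WT libraries.

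*Grik4* fell furthest. Its 6 double heterozygous libraries held 18.2, 18.9, 19.1, 18.0, 18.0 and 17.1 CPM, all below the lowest WT library at 22.4 CPM. The log2 fold change was -0.39 ± 0.0459 (SE, edgeR adjusted *P* = 0.000148), a fall by 23.6%, and was called whichever library was left out. *Gria1* ran from 186 through a median of 196 to 209.8 CPM in double heterozygotes, also below every WT library (log2 -0.17 ± 0.0385 SE, edgeR adjusted *P* = 0.0294). For comparison, 2.29% of all tested genes lay lower in every double heterozygous library than in WT.

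*Gria3* ran from 44.3 through 47.6 to 55.5 CPM in double heterozygotes and touched the WT range only through replicate 3 (log2 -0.25 ± 0.0496 SE, edgeR adjusted *P* = 0.0133). *Gria2* ran from 335 through 357 to 398 CPM, and replicate 3 alone entered the WT range. Its log2 fold change of -0.18 ± 0.05 (SE, edgeR adjusted *P* = 0.0716) was lost without WT replicate 1, 2 or 5 or without double replicate 1, 4 or 6, where the adjusted *P* rose to as much as 0.21.

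The other 5 genes overlapped WT and were not called in double heterozygotes. *Gria4* was at log2 -0.11 ± 0.0455 (SE, edgeR adjusted *P* = 0.255), and was called without double replicate 5 (adjusted *P* = 0.0479). Without that library 2504 of the 30552 tested genes were called, in place of 1001. *Grik1* and *Grik2* were at -0.070 and -0.069 (edgeR adjusted *P* = 0.481 and 0.53), *Grik3* at -0.059 (0.72) and *Grik5* at -0.0019 (0.993). In the low set (3 WT and 4 double libraries) *Gria1*, *Gria3* and *Grik4* were called (edgeR adjusted *P* = 0.0851, 0.0531 and 0.00389) and *Gria2* was not (log2 -0.20, 0.116), where 1.58% of all tested genes were called lower. In the high set, with 2 libraries a group, log2 fold changes were -0.18 for *Gria1*, -0.15 for *Gria2*, -0.26 for *Gria3* and -0.42 for *Grik4*, and edgeR called none of the 9 genes (lowest adjusted *P* 0.814) and 1 gene of all.

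The remaining comparisons ask how the 2 deletions combine. Set against *Nipbl*+/- brains, double heterozygotes showed no called receptor gene (0 of 9), and only 0.00655% of all tested genes were called. At an unadjusted *P* below 0.05 edgeR picked *Gria2* and *Grik2*, both higher in double heterozygotes, where 4.12% of all tested genes passed, and DESeq2 called none of the 9 and 0.0164% of all tested genes.

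*Grik2* was at 88.6, 96.4, 99.8, 84.6, 90.3 and 89.0 CPM in double heterozygotes, all above the highest *Nipbl*+/- library at 83.2 CPM. The difference was log2 0.21 (95% interval 0.084 to 0.33, edgeR adjusted *P* = 0.971), and 0.897% of all tested genes were higher in every double heterozygous library. *Gria2* differed by log2 0.16 (95% interval 0.014 to 0.30, edgeR adjusted *P* = 0.971), and double replicates 1 and 5, at 335 and 345 CPM, lay within the *Nipbl*+/- range (285 to 347 CPM). *Grik3* lay lower in every double heterozygous library than in *Nipbl*+/- brains (log2 -0.13, 95% interval -0.28 to 0.024, edgeR adjusted *P* = 0.971), as did 1.29% of all tested genes. All *Nipbl*+/- libraries (236 to 241 CPM for *Grik3*) are in the low *mt-Nd3* set. The 4 double libraries of that set held 225 to 234 CPM, and those of the high set 173.5 and 213.7 CPM. Within the low set edgeR called no receptor gene in this comparison. *Grik4* stayed low, at log2 -0.075 against *Nipbl*+/- (95% interval -0.20 to 0.051), and *Gria1*, *Gria3* and *Gria4* had intervals from -0.11 to 0.18 at their widest. *Grik1* differed by log2 0.10 (95% interval -0.022 to 0.23) and *Grik5* by -0.11 (95% interval -0.24 to 0.019).

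Against *Wapl* Δ/+ brains, 1 of the 9 genes fell in double heterozygotes, *Grik4* (1.02% of all tested genes called, 0.812% lower). The 7 *Wapl* Δ/+ libraries held 21.5 to 24.5 CPM (median 22.4) and the 6 double heterozygous libraries 17.1 to 19.1 CPM (median 18.1), without overlap, an order that 0.717% of all tested genes showed. The log2 fold change was -0.29 ± 0.0444 (SE, edgeR adjusted *P* = 0.00197). It was -0.27 in the low set (adjusted *P* = 0.293) and -0.35 in the high set (0.171), where fewer libraries were compared and edgeR called 0.0786% and 0.0949% of all tested genes. *Grik1* had the next smallest unadjusted *P* (log2 -0.097, 95% interval -0.18 to -0.011, edgeR adjusted *P* = 0.418), and *Gria2* differed by -0.012 (95% interval -0.14 to 0.11). The differences of *Gria1*, *Gria3* and *Gria4* were log2 -0.087, -0.087 and -0.034, with intervals from -0.22 to 0.075 at their widest. Those of *Grik2*, *Grik3* and *Grik5* were log2 -0.016, 0.0028 and -0.044, with intervals from -0.14 to 0.12 at their widest.

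**Figure D3:**
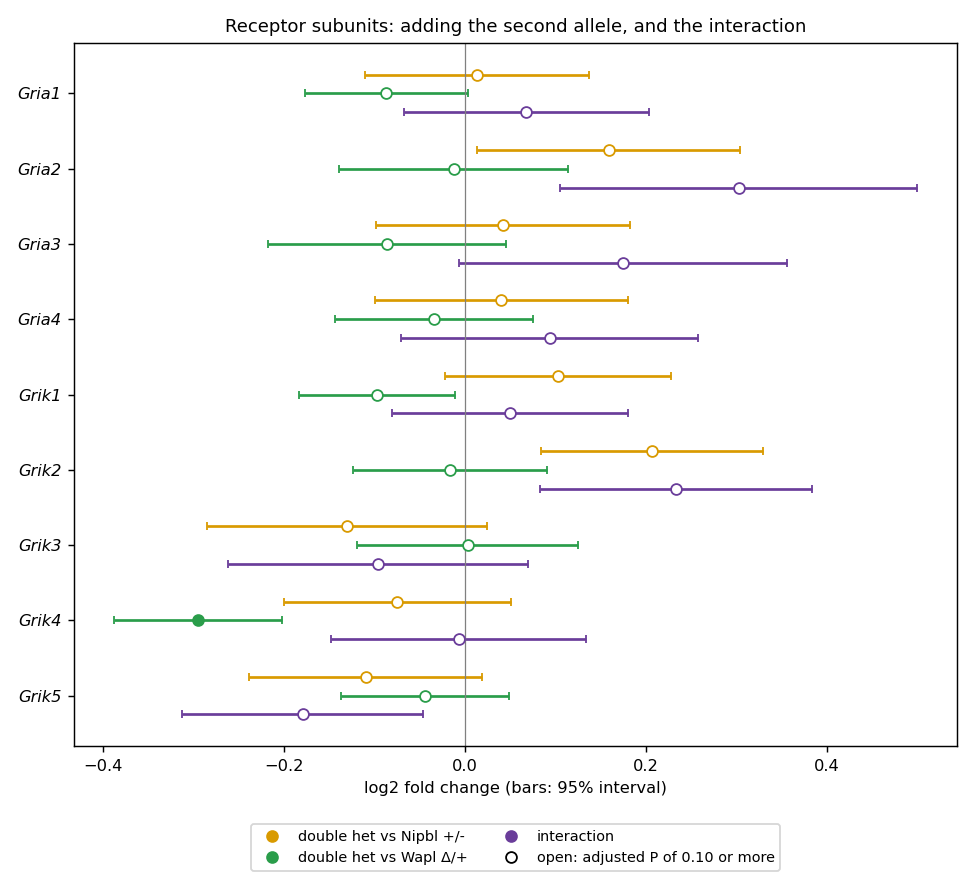
Log2 difference of each receptor subunit gene between double heterozygotes and *Nipbl*+/-, between double heterozygotes and *Wapl* Δ/+, and the interaction of the 2 deletions over all 4 groups; bars are 95% intervals and the filled point has an edgeR adjusted P below 0.10. Only *Grik4* against *Wapl* Δ/+ is filled, and the interaction intervals of *Gria2* and *Grik2* lie above 0 while that of *Grik5* lies below it.

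The interaction measures how far the change in double heterozygotes departs from the sum of the single changes on the log2 scale. No gene in the table passed the edgeR test at an adjusted *P* below 0.10 (0% called), while 13.8% had an unadjusted *P* below 0.05 and DESeq2 called 793 genes (2.6%). Among the receptor genes *Gria2* had an interaction of 0.30 (95% interval 0.10 to 0.50, edgeR adjusted *P* = 0.201), *Grik2* of 0.23 (0.083 to 0.38, adjusted *P* = 0.2) and *Grik5* of -0.18 (-0.31 to -0.046, adjusted *P* = 0.225), the 3 of the 9 with an unadjusted *P* below 0.05. DESeq2 called *Gria2* (adjusted *P* = 0.0716) and *Grik2* (0.068). *Grik4* departed least from the sum, at -0.0071 (95% interval -0.15 to 0.13). *Gria3* was at 0.17 (-0.0065 to 0.36), *Gria4* at 0.094 (-0.071 to 0.26), *Gria1* at 0.068 (-0.068 to 0.20), *Grik1* at 0.049 (-0.081 to 0.18) and *Grik3* at -0.096 (-0.26 to 0.070), with intervals that all held 0.

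Side by side, the 4 group means of the AMPA genes had the same lowest and highest group. Mean levels of *Gria2* were 413 ± 32.4 CPM in WT (SD, n = 5), 366 ± 37.2 in *Wapl* Δ/+ (n = 7), 361 ± 22.8 in double heterozygotes (n = 6) and 325 ± 34.5 in *Nipbl*+/- (n = 3). The middle groups differed by far less than their spread. *Gria1*, *Gria3* and *Gria4* had the same order of means. For *Gria1* the double heterozygous and *Nipbl*+/- means were 196 and 195 CPM and the *Wapl* Δ/+ mean 209 CPM. For *Gria3* they were 48.6, 47.4 and 51.8 CPM, and for *Gria4* 99.4, 97.0 and 102 CPM. No AMPA gene was called between double heterozygotes and either single heterozygote, and *Nipbl*+/- was not tested against *Wapl* Δ/+.

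*Grik2* had means of 96.6 ± 3.64 CPM in WT, 92.9 ± 7.21 in *Wapl* Δ/+, 91.5 ± 5.59 in double heterozygotes and 79.5 ± 3.66 in *Nipbl*+/-. The first 3 overlapped one another and the last stood apart from WT and double heterozygotes. *Grik4* had means of 24.0 ± 1.17, 22.4 ± 1.08, 18.2 ± 0.725 and 19.2 ± 0.849 CPM in the same group order, so both groups with a *Nipbl* deletion lay below both groups without one. *Grik5* means stayed between 251 and 271 CPM and *Grik3* means between 217 and 239 CPM.

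Across the 21 libraries, with the group means taken out, pairs of receptor genes varied together to different degrees. Pearson's r of log2 CPM among the 4 AMPA genes ran from 0.623 to 0.833 over 6 pairs, and between them and *Grik2* from 0.739 to 0.88. With *Grik1* it ran from 0.372 to 0.673, with *Grik4* from 0.161 to 0.479, and with *Grik3* and *Grik5* from -0.45 to 0.0725 over 8 pairs. *Grik3* and *Grik5* correlated with each other at r = 0.686. These values describe 21 libraries that share depth scaling and the *mt-Nd3* sets, and genes of a library are not independent. The same r was not computed over pairs of all tested genes, so whether receptor genes vary together more than other genes was not tested.

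**Figure D4:**
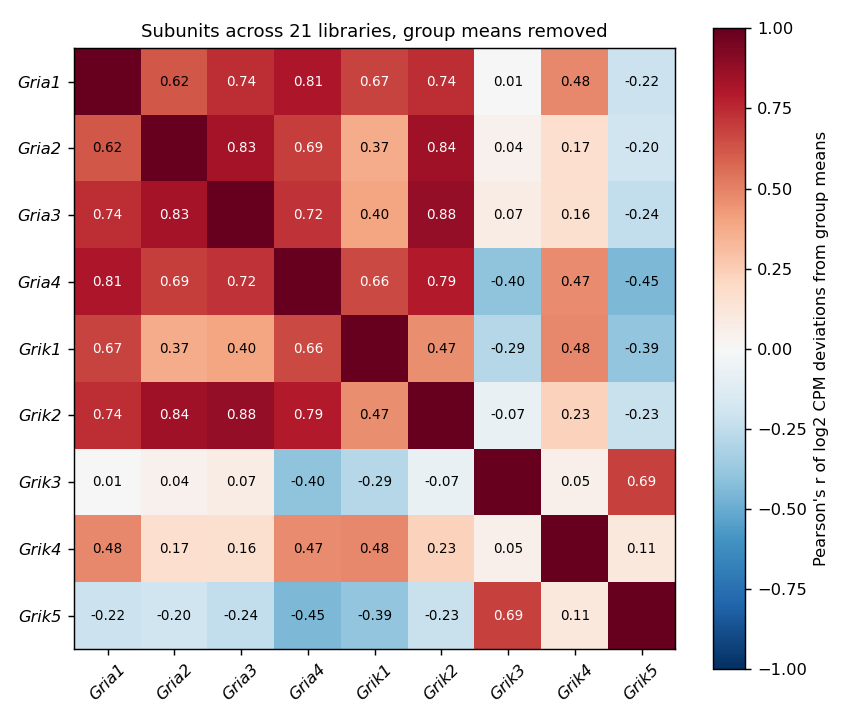
Pearson's r between receptor subunit genes over 21 libraries, from log2 CPM with the mean of each genotype group removed. The AMPA genes and *Grik2* form a block of values from 0.62 to 0.88, and *Grik3* pairs with *Grik5* at 0.69.

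By Pearson's r with *Gria2* over the same libraries, group means included, the 5 most similar of 17294 genes with at least 1 CPM were *Itgb8* (r = 0.957, Spearman's rho 0.896), *Arhgap5* (0.957, rho 0.929), *Myo9a* (0.944, rho 0.912), *Cltc* (0.944, rho 0.904) and *Clasp2* (0.943, rho 0.880). With the group means removed r remained between 0.901 and 0.939, higher than for any pair of AMPA genes (at most 0.833). None of the 5 is a glutamate receptor subunit gene or a listed partner gene.

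Receptor subunits reach the synapse with partner proteins, and 42 partner genes in 7 lists were read in the same tests. In *Nipbl*+/- brains 16 of the 42 fell, 4 rose and 22 did not pass, where 6.96% of all tested genes were called lower and 4.25% higher. Of the 14 partner genes that average 20 CPM or more and span at least 100 kb, 7 fell, against 38.9% of all genes of that class. In *Wapl* Δ/+ brains 4 of the 42 fell (1.45% of all tested genes) and none rose. Among genes averaging 20 CPM or more 2.65% were called lower there, and 9.84% among those that also span at least 100 kb. In double heterozygotes 13 fell (2.46% of all tested genes) and none rose, with 5 of the 14 long and abundant partner genes among them (15.8% of that class). The median log2 fold change in *Nipbl*+/- brains was -0.25 over the AMPA genes and -0.18 over the kainate genes, where it was -0.0086 over all tested genes. Over the genes averaging 20 CPM or more that span at least 100 kb the median was -0.094.

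*Grid1* encodes a delta receptor, a glutamate receptor relative that acts in synapse adhesion. It fell in *Nipbl*+/- brains, by log2 -0.16 ± 0.0522 (SE, edgeR adjusted *P* = 0.0666), and was not called in *Wapl* Δ/+ or double heterozygotes against WT. Double heterozygotes differed by log2 0.045 (95% interval -0.079 to 0.17) from *Nipbl*+/- and by -0.11 (-0.19 to -0.019, edgeR adjusted *P* = 0.373) from *Wapl* Δ/+, and the interaction was 0.019 (-0.12 to 0.16). *Grid1* starts 72019 bases beyond the end of *Wapl* on chromosome 14, and its mean in *Wapl* Δ/+ was 99.8% ± 4.91 of WT (SD, n = 7).

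The kainate auxiliary subunits *Neto1* and *Neto2*, which slow kainate receptor kinetics, fell further than any subunit gene in *Nipbl*+/- brains. Their log2 fold changes were -0.49 ± 0.0729 (SE, edgeR adjusted *P* = 0.000453) and -0.55 ± 0.0497 (adjusted *P* = 8.44e-06). In double heterozygotes both fell again, with log2 fold changes of -0.39 and -0.41 (adjusted *P* by edgeR 0.00395 and 8.83e-05), and *Neto2* was also called in *Wapl* Δ/+ brains (-0.19, adjusted *P* = 0.0601).

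Of the 12 AMPA auxiliary subunit genes, which tune gating and surface delivery, 5 fell and 1 rose in *Nipbl*+/- brains (median log2 -0.049). *Shisa6* fell most (log2 -0.79 ± 0.0937 SE, edgeR adjusted *P* = 8.35e-05), followed by *Gsg1l* (-0.45), *Shisa9* (-0.40) and the TARP gene *Cacng3* (-0.30). *Cacng7*, named here after its value was seen, rose (log2 0.12, adjusted *P* by edgeR 0.0452). In double heterozygotes 5 of the 12 fell, *Shisa6* again the most (-0.62, edgeR adjusted *P* = 8.83e-05), and none rose.

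Genes for receptor assembly in the endoplasmic reticulum moved both ways: *Frrs1l* fell (log2 -0.36, edgeR adjusted *P* = 0.00286) and *Cpt1c* rose (0.16, adjusted *P* = 0.0181) in *Nipbl*+/- brains, among 4 genes. *Frrs1l* also fell in *Wapl* Δ/+ brains (-0.27, adjusted *P* = 0.0661). In double heterozygotes against WT edgeR called none of the 4, and the mean of *Frrs1l* was 86.0% of WT. Of 12 scaffold and trafficking genes, *Dlg2* (-0.43, edgeR adjusted *P* = 0.000825) and *Akap5* (-0.29, adjusted *P* = 0.00497), which anchor receptors and kinases at the postsynaptic density, fell in *Nipbl*+/- brains. *Pick1*, whose product binds the tail of GluA2 and takes part in its internalisation, rose there (0.15, edgeR adjusted *P* = 0.0162). *Dlg2* and *Akap5* were also called lower in *Wapl* Δ/+ brains (edgeR adjusted *P* = 0.0863 and 0.0574) and in double heterozygotes (0.0635 and 0.0711).

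Of 8 genes for secreted or synaptic clustering partners, 4 fell in both *Nipbl*+/- and double heterozygous brains: *Olfm1*, *Nptx2*, *C1ql3*, a synapse organiser that binds kainate receptors, and *Olfm3*. Their log2 fold changes in *Nipbl*+/- brains ran from -0.38 for *Olfm3* and *C1ql3* through -0.32 for *Nptx2* to -0.23 for *Olfm1* (edgeR adjusted *P* 0.000726 to 0.0146). Among the adenosine deaminases, *Adarb1*, which edits the *Gria2* transcript at the pore, fell (log2 -0.24, edgeR adjusted *P* = 0.008) and *Adarb2*, which has no known editing activity, rose (0.15, adjusted *P* = 0.0471) in *Nipbl*+/- brains, and *Adar* did not pass. Editing itself was not measured.

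**Figure D5:**
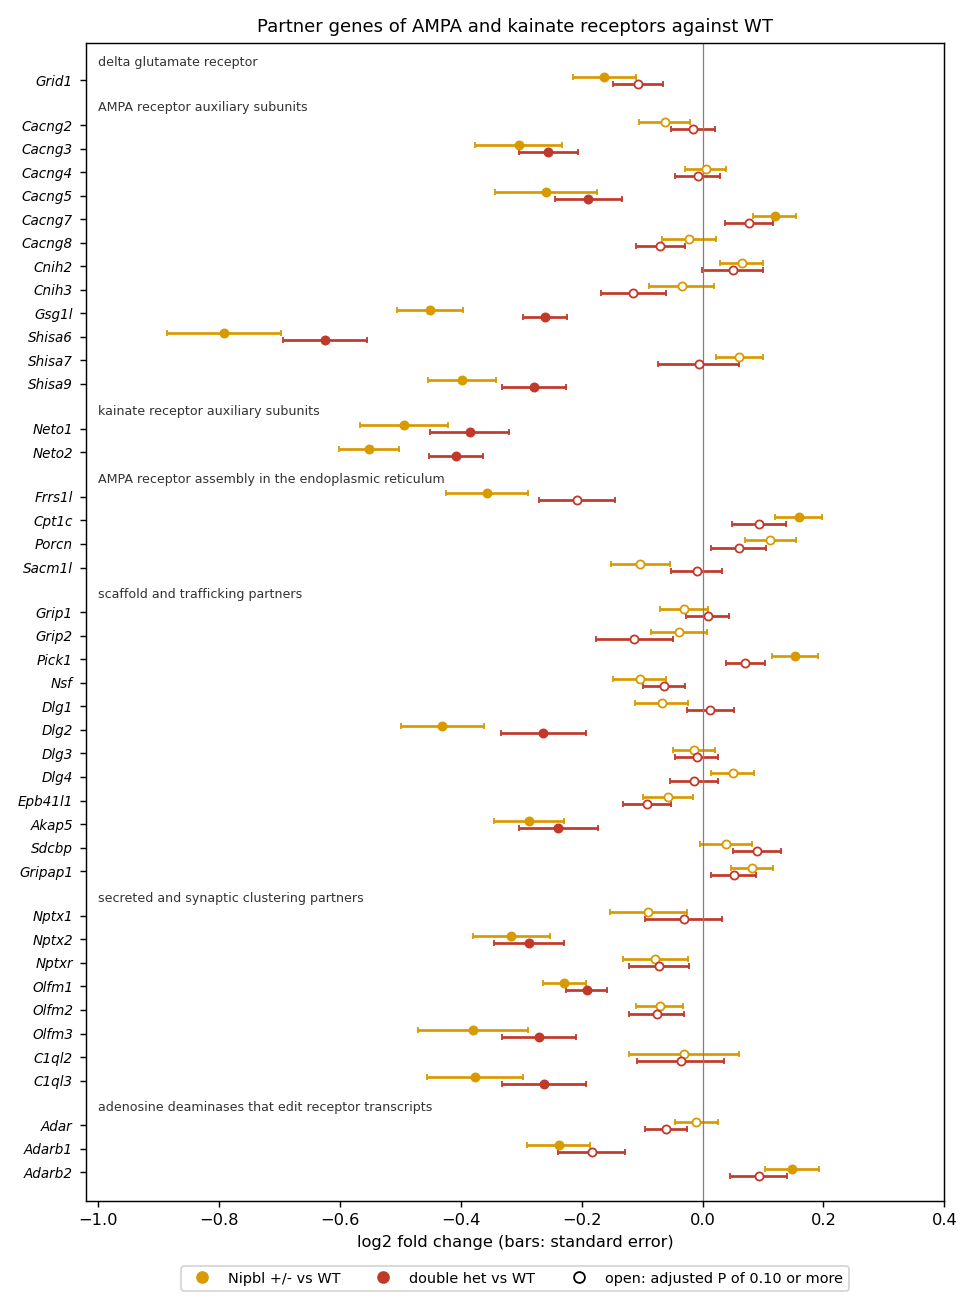
Log2 fold change of the 42 partner genes against WT in *Nipbl*+/- and double heterozygous brains, by list; bars are standard errors and filled points have an edgeR adjusted P below 0.10. Of the filled *Nipbl*+/- points 16 lie below 0 and 4 above, and all 13 filled double heterozygous points lie below 0.

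Markers of cell types moved beside the receptor genes in *Nipbl*+/- brains, where 6.96% of all tested genes were called lower and 4.25% higher. Of 10 pan-neuronal genes 4 were called lower and none higher (summed level 5845 to 6113 CPM against 6212 to 6529.7 in WT), and of 7 glutamatergic genes 1 was called lower (sums 868 to 945 against 909.95 to 1006 CPM). Of 8 GABAergic genes 4 were called higher and 1 lower (sums 659 to 710.0 against 628 to 663 CPM), and of 10 progenitor genes 3 higher and 1 lower (sums 982 to 1186 against 1063 to 1106 CPM). The GABAergic genes, named here after their values were seen, were *Dlx1*, *Dlx2*, *Dlx5* and *Lhx6* (higher) and *Sst* (lower). *Gad1*, *Gad2* and *Slc32a1* were not called (edgeR adjusted *P* 0.551 to 0.961). Of 7 astrocyte genes 5 were lower (574 to 699 against 736 to 802 CPM), of 6 oligodendrocyte lineage genes 3 (172 to 212 against 219.8 to 243 CPM) and of 6 microglial genes 4 (57.6 to 68.3 against 71.8 to 85.5 CPM).

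In double heterozygotes, 1 pan-neuronal gene was called lower and 1 higher (sums 5955 to 6677 CPM), 3 astrocyte, 4 oligodendrocyte lineage and 1 microglial gene were lower, and no progenitor gene was called. In the same group 1 glutamatergic and 1 GABAergic gene were also lower, and 1 choroid plexus gene was higher. Against WT, 2.46% of all tested genes were called lower in double heterozygotes and 0.812% higher. Among *Wapl* Δ/+ libraries, 3 of 6 meningeal genes were called higher and 1 of 7 pituitary genes lower, and no neuronal, progenitor or glial marker was called. Of all tested genes 0.769% were called higher and 1.45% lower there. In *Nipbl*+/- brains 1 choroid plexus and 1 meningeal gene were called higher. Blood, choroid plexus and meningeal sums overlapped WT in every group, and pituitary sums, with group medians of 2.22 to 3.00 CPM, reached 89.8 CPM in a WT library and 40.6 CPM in a double heterozygote. No marker in any list was at 0 in all libraries. The part of these shifts in the levels of the receptor genes was not tested.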

How the data were processed

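Libraries were made from poly(A) RNA of 21 female E17.5 whole brains and sequenced as 101 bp paired-end reads. Per the submitters' processing notes and methods, the authors trimmed reads with cutadapt 2.4, mapped them with STAR 2.5.3a to mm10 (GRCm38.p6) and counted them with featureCounts (Subread 1.6.4). The annotation, the strand setting and the treatment of multi-mapping reads are not given in the sources used here. The deposited values are raw counts per gene. A further *Nipbl*+/- library that the authors excluded was not analysed here.

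Tests were run with edgeR 4.0.16 under R 4.3.3, by its quasi-likelihood test after TMM scaling. A gene was tested where its scaled counts summed to 10 or more across the 21 libraries, and a Benjamini-Hochberg adjusted *P* below 0.10, the threshold of the study, made a call. The study itself made its calls with DESeq2, which is used here only as an alternative. Pairwise fits used only the libraries of both groups, and the interaction used all 4 groups. CPM were computed with TMM-scaled library sizes, and a prior count of 2 was used for the correlations. DESeq2 1.42.0, other scalings and filters, 1 fit over all groups, a replicate term, the *mt-Nd3* sets and each library left out were the alternatives. The comparison within the high *mt-Nd3* set was added after the data were seen. Each library is 1 embryo. No source ties libraries to litters, and neither litter nor cross was modelled, so *P* treats embryos as independent. The Poisson counting error of a receptor gene in a library was at most 4.42%. Gene spans came from a RefSeq table of GRCm38.p6, matched by symbol (78.8% of tested genes). Sequences were not used here.

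The members and gene lists were chosen with earlier results of these data known. All 9 members were named in every comparison, as was *Grid1*. Of the partner genes first listed, 1 is not reported here. From each partner list the genes called in *Nipbl*+/- against WT were named, at most 4 by adjusted *P*. For likeness, the 5 genes with the highest r with *Gria2* were named.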

Additional observations from a re-analysis of the deposited data

Results flagged for a closer look

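*Grik3* stood at 173.5 CPM in double heterozygous replicate 5, far below the nearest of the other 5 libraries of its group at 213.7 CPM. The gap was 0.663 of the range of the 6 libraries. *Grik5* was also lowest in that library, at 218 CPM, while *Gria4* was highest there among the double heterozygotes, at 106 CPM. Of 27 sets of 4 or more libraries examined over the 9 genes, 1 held such a value. The limit used, Dixon's 95% critical value, is passed by chance in about 1 set in 20. Without this library the log2 fold change of *Grik3* in double heterozygotes against WT was -0.0053 in place of -0.059, and neither was called by edgeR (adjusted *P* = 0.966 and 0.72).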

How the results depend on the processing

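Over the 9 genes and 6 comparisons, 54 gene results were recomputed under 1170 alternatives in all. Of these 1072 kept direction and call, 27 lost a call, 15 gained one and 56 changed sign, none of the last for a called gene. The cause of these changes was not tested.

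In *Nipbl*+/- against WT, 5 to 8 of the 9 genes were called, and without each library in turn also 5 to 8. *Gria1*, *Gria2*, *Gria3*, *Grik2* and *Grik4* were called throughout. In *Wapl* Δ/+ against WT the count was 1 with DESeq2, 2 with a replicate block and 0 to 2 with 1 library left out (2 without *Wapl* Δ/+ replicate 6). In double heterozygotes against WT it was 2 with the block, 0 in the high *mt-Nd3* set and 3 to 5 with 1 library left out. Against *Nipbl*+/- the block gave 2 (*Gria2* and *Grik2*) in place of 0, against *Wapl* Δ/+ both *mt-Nd3* sets gave 0 in place of 1, and for the interaction DESeq2 gave 2. Deviations of same-numbered libraries from their group means correlated at r from -0.206 to 0.3, and libraries with different numbers were not compared. The block pairs libraries by number only. Over all tested genes the calls ran from 1658 (1 fit over all groups) to 4788 (without *Nipbl*+/- replicate 2) around 3422 for *Nipbl*+/-, from 7 (1 fit over all groups) to 1991 (block) around 677 for *Wapl* Δ/+, and from 1 (high set) to 2504 (without double replicate 5) around 1001 for double heterozygotes against WT. They ran from 1 to 59 (block) around 2 against *Nipbl*+/-, from 24 (low set) to 626 (DESeq2) around 311 against *Wapl* Δ/+, and up to 945 (without double replicate 6) in place of 0 for the interaction.

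Sign changes were all among log2 values that were not called. In the low *mt-Nd3* set *Grik1* (-0.012) and *Grik3* (0.013) changed sign in *Wapl* Δ/+ against WT, and *Grik3* (0.017) and *Grik5* (0.027) in double heterozygotes against WT. *Grik5* was also at 0.0051 among genes of at least 1 CPM, at 0.0033 in 1 fit over all groups, and from -0.032 to 0.031 with 1 library left out. Between double heterozygotes and *Nipbl*+/-, *Gria1* was at -0.00057 in 1 fit over all groups, and leaving out 1 library gave -0.031 to 0.085 for *Gria1*, -0.0064 to 0.083 for *Gria3* and -0.022 to 0.11 for *Gria4*. Between double heterozygotes and *Wapl* Δ/+, the low set gave 0.11 for *Gria2*, 0.039 for *Gria3*, 0.050 for *Gria4* and 0.089 for *Grik2*, and a term for the set gave 0.0082 for *Gria2* and 0.0034 for *Grik2*. *Grik3* there was at -0.0058 in 1 fit over all groups, -0.028 with the block, -0.066 with the term and -0.14 in the high set. Leaving out 1 library gave -0.060 to 0.019 for *Gria2*, -0.051 to 0.014 for *Grik2* and -0.024 to 0.060 for *Grik3*. The interaction of *Grik4* was 0.023 with DESeq2, 0.022 with its size factors, 0.018 with no filter, 0.030 among genes of at least 1 CPM, 0.031 with the block, 0.062 in the low set and -0.030 to 0.066 with 1 library left out.

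With 3 *Nipbl*+/- libraries the calls of *Gria4* and *Grik1* were lost without single embryos. Counting error, taken as Poisson, was below the spread between libraries in all but 3 of 36 pairs of gene and group: *Grik4* in double heterozygotes (counting CV 4.21%, observed CV 3.98%), *Grik1* in WT (2.75% and 2.15%) and *Grik3* in *Nipbl*+/- (1.16% and 1.11%).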
